A study of Homo sapiens with 4 samples.

Results

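Transcripts of 10 enzymes of mitochondrial fatty acid oxidation were examined: the carnitine palmitoyltransferases CPT1A and CPT2, the acyl-CoA dehydrogenases ACADVL, ACADM and ACADS, the trifunctional protein subunits HADHA and HADHB, the thiolase ACAA2, and the electron transfer flavoprotein subunits ETFA and ETFB. Members were chosen by gene symbol, and all 10 were found among the 25066 genes listed for the series. The values come from RNA sequencing of NUDUL1 cells, a human line of diffuse large B cell lymphoma of the germinal center B cell-like subtype. Per the study's methods, the cells derive from a single-cell clone with doxycycline-inducible Cas9 and were transduced with Tbxa2r, a receptor that couples to Gα13. Cells with a control sgRNA and cells with a GNA13 sgRNA, 1 guide for each genotype, were both treated for 24 h with the thromboxane-A2 analog U46619, at 10 nM according to the labels. There were 2 libraries for each genotype and no untreated cells, so every difference below is between genotypes under receptor stimulation. The labels describe duplicate treatments and name no separate cultures or clones, so p values measure only the spread between these libraries, which may be technical.

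Fatty acids are activated to acyl-CoA and cross into mitochondria as carnitine esters, formed by CPT1 on the outer membrane and converted back by CPT2 on the inner membrane. Each turn of beta-oxidation then removes a C2 unit through dehydrogenation, hydration, a further dehydrogenation and thiolysis, with enzymes that differ in the chain lengths they accept. Electrons of the initial dehydrogenation pass to the electron transfer flavoprotein and from there, through ETFDH, to ubiquinone. Germinal center B cells are known to use this pathway, and the study asked in other experiments whether growth of Gα13-deficient B cells depends on it. The libraries described here give the level of its transcripts only and not the flux through it.

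Each library had between 29209544 and 31537955 mapped reads. GNA13 itself (Entrez 10672, chromosome 17 from 63005407 to 63052858, GRCh37) had log2 values of 12.46 and 12.45 under the control label and 13.10 and 13.11 under the GNA13-deficient label. Its mRNA was thus more abundant in the libraries labelled as deficient in it (difference 0.65, standard error 0.05, limma adjusted p = 0.00214). Small indels made by Cas9 need not lower the mRNA of the gene they disrupt, so the mRNA level checks the labels neither way. Libraries are named by their labels, on which all directions given here depend. All 6 B-lineage markers lay between 10.21 and 14.33 and the 6 germinal center markers between 4.13 and 14.07. The 4 T cell markers summed to 0 to 5 reads, the 4 fibroblast markers to 4 to 16 and the 4 liver and muscle markers to 2 to 7. The 4 myeloid markers summed to 99 and 101 reads under the control label and to 25 and 21 in the others. Most were reads of LYZ, with 83 and 83 against 11 and 17, a fall by 2.53 (limma adjusted p = 0.00759). CSF1R had 15 and 16 reads against 13 and 4, and CD14 and CD163 were at or near 0. The part of these markers in any result was not tested.

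Of the 10 enzymes, 2 rose and 3 fell in the libraries labelled GNA13-deficient with an adjusted p under 0.05 (limma, adjusted over all 16945 genes tested), and 5 did not pass. Among all genes tested, 13.1% were called higher and 16.6% lower, or 29.7% in either direction. ACAA2, the mitochondrial thiolase that cleaves medium-chain 3-ketoacyl-CoA, and ETFB, the beta subunit of the electron transfer flavoprotein, rose by 0.46 and 0.42 on the log2 scale. ACADS, the dehydrogenase of short-chain acyl-CoA, fell by 1.66, and both subunits of the trifunctional protein fell, HADHA by 0.46 and HADHB by 0.24. CPT1A, CPT2, ACADVL, ACADM and ETFA did not pass, with differences from -0.21 to 0.09. In bulk RNA, less transcript per cell and fewer cells that hold it cannot be told apart.

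Transcripts of these enzymes are mostly abundant, and 9 of the 10, all but ACADS, lay at or above the median level of the genes tested. Of all genes at or above that level 39.0% were called, 21.3% higher and 17.7% lower. The median difference over the 10 enzymes was -0.070 (0.14 under median centring) and over all genes tested -0.0245. In 7 of the 10 the genotypes did not overlap, against 65.3% of all genes. Centring each library on its median moved the median over all genes to 0.18, with 4311 genes then called higher and 1924 lower in place of 2218 and 2819. Changes under that scaling are relative to this shift. Of the 5 calls, those of ACADS, HADHA, ACAA2 and ETFB held under both median centring and quantile normalization.

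**Figure D1:**
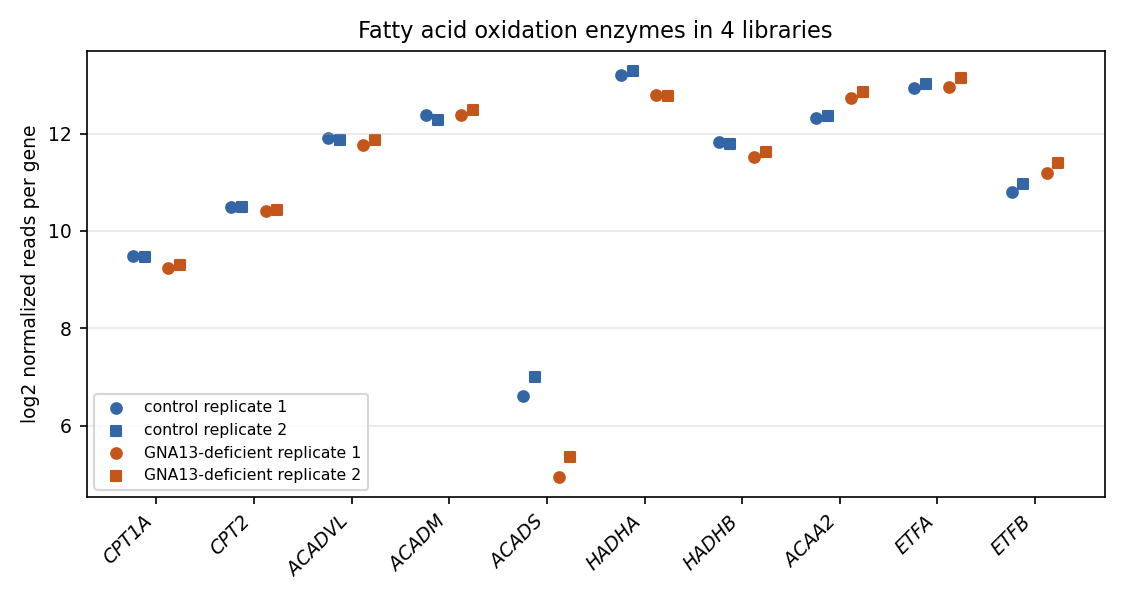
Log2 normalized reads (vertical axis) of each of the 10 enzymes in the 4 libraries, blue for the libraries labelled control and orange for those labelled GNA13-deficient, with circles for replicate 1 and squares for replicate 2; each point is 1 library. ACADS stood lowest, with 6.61 and 6.999 against 4.94 and 5.35, and the genotypes overlapped for ACADVL, ACADM and ETFA.

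Entry into mitochondria was examined first. CPT1A (Entrez 1374, chromosome 11 from 68522088 to 68611878 on the minus strand), the isoform of the outer-membrane transferase that is found in most tissues and is inhibited by malonyl-CoA, had log2 values of 9.49 and 9.47 under the control label and 9.25 and 9.30 under the GNA13-deficient label. Both libraries labelled GNA13-deficient lay below both labelled control, but the difference of -0.21 (standard error 0.07) did not pass (limma adjusted p = 0.0789, 95% interval -0.38 to -0.03 before adjustment) and came to -0.00050 under median centring. CPT2 (Entrez 1376, chromosome 1 from 53662464 to 53679869 on the plus strand), the inner-membrane transferase, had values of 10.50 in both libraries labelled control and of 10.41 and 10.43 in the others. Its difference was -0.0845 (standard error 0.05, limma adjusted p = 0.304) with an interval from -0.22 to 0.05, or from 14.3% lower to 3.80% higher on the linear scale, and it turned to 0.12 under median centring. Exons of CPT2 overlap exons of CZIB on the opposite strand in the annotation, and whether the authors counted by strand is not given in the sources used here.

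The other acyltransferases and carnitine carriers were 6 genes, all tested. None was called higher and 3 were called lower (median -0.58), beside 13.1% and 16.6% of all genes tested. Under median centring and under quantile normalization 2 were called higher and 2 lower, with medians of -0.38 and -0.34, since the acyltransferases CRAT (adjusted p = 0.0118 and 0.0176) and CROT (adjusted p = 0.0227 and 0.0173) then passed. All 16945 genes tested had 4311 higher and 1924 lower under median centring, and 2741 and 2547 with quantile normalization. CPT1B, the muscle-type isoform of the outer-membrane transferase, had 56 and 52 reads under the control label against 28 and 23, a fall by 1.02 (standard error 0.27). CPT1C, the brain-type isoform, had 17 and 19 reads against 1 and 0; summed over each genotype the reads were 34.3 times lower in the libraries labelled GNA13-deficient, with a 95% counting interval from 5.77 to 1391. SLC22A5, the plasma-membrane carnitine transporter, had 28 and 42 reads against 3 and 8. SLC25A20, which exchanges acylcarnitine for carnitine across the inner membrane between CPT1 and CPT2, had log2 values of 10.09 and 10.12 against 9.94 and 9.97, a difference of -0.15 that did not pass (limma adjusted p = 0.117) and turned to 0.056 under median centring. The fall of CPT1B was lost under both scalings (adjusted p = 0.0659 and 0.159).

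The acyl-CoA dehydrogenases, which open each turn of the cycle, differed in how they moved. ACADVL (Entrez 37, chromosome 17 from 7120444 to 7128585 on the plus strand), for very-long-chain substrates, had log2 values of 11.90 and 11.86 under the control label and 11.78 and 11.88 under the GNA13-deficient label. ACADM (Entrez 34, chromosome 1 from 76190116 to 76253260 on the plus strand), for medium chains, had 12.39 and 12.27 against 12.37 and 12.48. For both enzymes the genotypes overlapped, with differences of -0.055 (95% interval -0.21 to 0.10) and 0.093 (95% interval -0.089 to 0.27). ACADVL turned to 0.15 under median centring, and ACADM passed the threshold there (0.30, limma adjusted p = 0.0358). Exons of ACADVL overlap those of DLG4 on the opposite strand, and exons of ACADM overlap those of RABGGTB on the same strand.

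ACADS (Entrez 35, chromosome 12 from 121163577 to 121177811 on the plus strand) was the least abundant enzyme of the 10 and changed most. Its log2 values were 6.61 and 6.999 under the control label, from 96 and 130 reads, and 4.94 and 5.35 under the GNA13-deficient label, from 30 and 38 reads. The genotypes did not overlap, and the fall by 1.66 (standard error 0.27, limma adjusted p = 0.0131) corresponds to a level 3.15-fold lower, with a 95% interval of the log2 difference from -2.37 to -0.95. The difference was -1.45 under median centring and -1.23 with quantile normalization. Without a filter on low values the call was lost (adjusted p = 0.0907).

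The region upstream of ACADS is shown because this gene changed most. It is the 250 bases before the RefSeq start (GRCh38.p14, chr12:120725576-120725825, plus strand), with matches to a GC box, read on the other strand, in capitals.
ACADS: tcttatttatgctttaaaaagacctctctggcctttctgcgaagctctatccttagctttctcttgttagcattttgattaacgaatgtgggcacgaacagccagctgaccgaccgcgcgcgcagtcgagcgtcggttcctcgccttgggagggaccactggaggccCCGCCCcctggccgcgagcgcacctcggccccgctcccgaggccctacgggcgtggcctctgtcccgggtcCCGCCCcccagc

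HADHA and HADHB encode the alpha and beta subunits of the trifunctional protein, the inner-membrane complex that carries out hydration, the second dehydrogenation and thiolysis of long-chain acyl-CoA. HADHA (Entrez 3030, chromosome 2 from 26413504 to 26467540 on the minus strand) had log2 values of 13.20 and 13.29 under the control label and 12.80 and 12.77 under the GNA13-deficient label. These rest on 6475 to 10145 reads per library, and the fall by 0.46 (standard error 0.06, limma adjusted p = 0.00649) corresponds to a level 27.3% lower, with a 95% interval of the change from -34.6% to -19.2%. HADHB (Entrez 3032, chromosome 2 from 26466038 to 26513333 on the plus strand) had 11.83 and 11.78 against 11.51 and 11.62. It fell by 0.24 (standard error 0.06, limma adjusted p = 0.0442). The genotypes overlapped for neither subunit. Under median centring HADHA remained past the threshold (-0.25, adjusted p = 0.0453) and HADHB did not (-0.03, adjusted p = 0.766). HADHA has the processed pseudogenes HADHAP1 and HADHAP2 and HADHB has HADHBP1, so some reads of either subunit could have been lost or gained in the authors' counting.

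The subunit genes lie head to head. Their RefSeq starts, at 26244632 for HADHA and 26244939 for HADHB on chromosome 2 (GRCh38.p14), are separated by 306 bases, and 194 of the 250 bases upstream of one start are also upstream of the other. In the GENCODE positions on GRCh37 given above the genes overlap, with HADHB from 26466038 and HADHA up to 26467540. The spacing and the shared bases hold for the RefSeq starts only. The 250 bases upstream of HADHA are shown because both subunits fell and the first 194 bases printed (26244689 to 26244882) also lie in the window upstream of HADHB. They are printed in the direction of HADHA (chr2:26244633-26244882, minus strand) with a GC box in capitals, which is 243 to 248 bases upstream of HADHA and 59 to 64 bases upstream of HADHB.
HADHA: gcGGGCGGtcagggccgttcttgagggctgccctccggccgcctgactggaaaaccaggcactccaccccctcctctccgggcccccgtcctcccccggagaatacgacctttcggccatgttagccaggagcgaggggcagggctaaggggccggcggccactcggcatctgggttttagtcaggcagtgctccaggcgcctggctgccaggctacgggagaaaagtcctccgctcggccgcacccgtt

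ACAA2 (Entrez 10449, chromosome 18 from 47308534 to 47340323 on the minus strand), the matrix thiolase, went the other way. It had log2 values of 12.32 and 12.36 under the control label and 12.74 and 12.86 under the GNA13-deficient label, so that the genotypes did not overlap. The rise by 0.46 (standard error 0.06, limma adjusted p = 0.00831) is a level 1.38-fold higher, with a 95% interval of the log2 difference from 0.29 to 0.63. It was 0.67 under median centring and 0.34 with quantile normalization. A transcribed pseudogene, ACAA2P1, is annotated, and exons of ACAA2 overlap those of an unnamed protein-coding gene on the same strand.

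The electron transfer flavoprotein is a heterodimer of ETFA and ETFB, and its subunits behaved differently. ETFA (Entrez 2108, chromosome 15 from 76480896 to 76604071 on the minus strand) had log2 values of 12.94 and 13.03 under the control label and 12.96 and 13.14 under the GNA13-deficient label. The genotypes overlapped, and the difference of 0.0635 (95% interval -0.15 to 0.28) turned to -0.061 with quantile normalization. ETFB (Entrez 2109, chromosome 19 from 51848423 to 51869642 on the minus strand) had 10.80 and 10.96 against 11.20 and 11.40. It rose by 0.42 (standard error 0.10, limma adjusted p = 0.0314), a level 1.33-fold higher, and remained past the threshold at 0.62 under median centring and 0.39 with quantile normalization. ETFDH, the membrane-bound acceptor of its electrons, had 8.75 and 8.67 against 9.27 and 9.26 and rose by 0.55 (standard error 0.08, limma adjusted p = 0.00849). Exons of ETFB overlap those of an unnamed protein-coding gene on the same strand and of a long noncoding RNA on the opposite strand.

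ETFB has 2 starts in RefSeq. The 250 bases before the outer one (GRCh38.p14, chr19:51366389-51366638, minus strand) are shown because they hold the only match to the NRF1 element upstream of any of the 10 genes. Capitals mark, in order, a pair of CCAAT boxes and the NRF1 element, all read on the other strand, and a GC box.
ETFB: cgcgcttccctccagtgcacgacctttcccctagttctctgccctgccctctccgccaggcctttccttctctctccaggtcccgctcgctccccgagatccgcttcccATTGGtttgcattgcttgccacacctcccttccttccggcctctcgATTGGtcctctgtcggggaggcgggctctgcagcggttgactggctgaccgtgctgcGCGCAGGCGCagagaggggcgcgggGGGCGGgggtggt

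**Figure D2:**
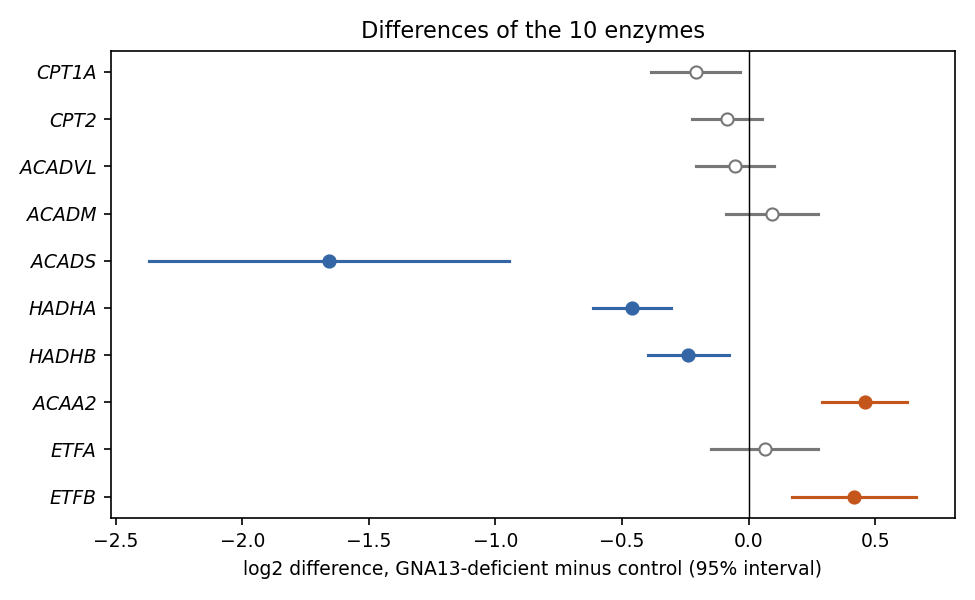
Log2 difference of each enzyme, libraries labelled GNA13-deficient minus libraries labelled control (horizontal axis), from the linear model over all genes; bars are 95% intervals before adjustment, filled points passed an adjusted p of 0.05 (orange higher, blue lower) and open points did not. ACAA2 and ETFB lie above 0, at 0.46 and 0.42, and ACADS, HADHA and HADHB below, at -1.66, -0.46 and -0.24.

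With each library left out in turn, none of the 5 calls passed, at adjusted p values from 0.0787 to 0.0977 for HADHA, 0.0746 to 0.109 for ACAA2, 0.0992 to 0.139 for ACADS, 0.107 to 0.216 for ETFB and 0.107 to 0.218 for HADHB. No gene of all 16945 passed in these fits, which have 3 libraries, while 5257 to 5600 had an unadjusted p under 0.05 in limma. Without a filter on low values the calls of ACAA2 (adjusted p = 0.0659), HADHB (0.140) and ETFB (0.181) were also lost, and without a mean-variance trend those of HADHA (0.0516), ACAA2 (0.0600), ETFB (0.121) and HADHB (0.166). The differences with 1 library left out kept their direction, between -0.50 and -0.42 for HADHA, 0.40 and 0.52 for ACAA2, -1.86 and -1.45 for ACADS, 0.31 and 0.52 for ETFB, and -0.29 and -0.18 for HADHB. The differences between libraries of the same replicate number also had 1 direction for each of these genes. For ACADS they were -1.67 and -1.65, for HADHA -0.40 and -0.52, and for ACAA2 0.42 and 0.50.

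**Figure D3:**
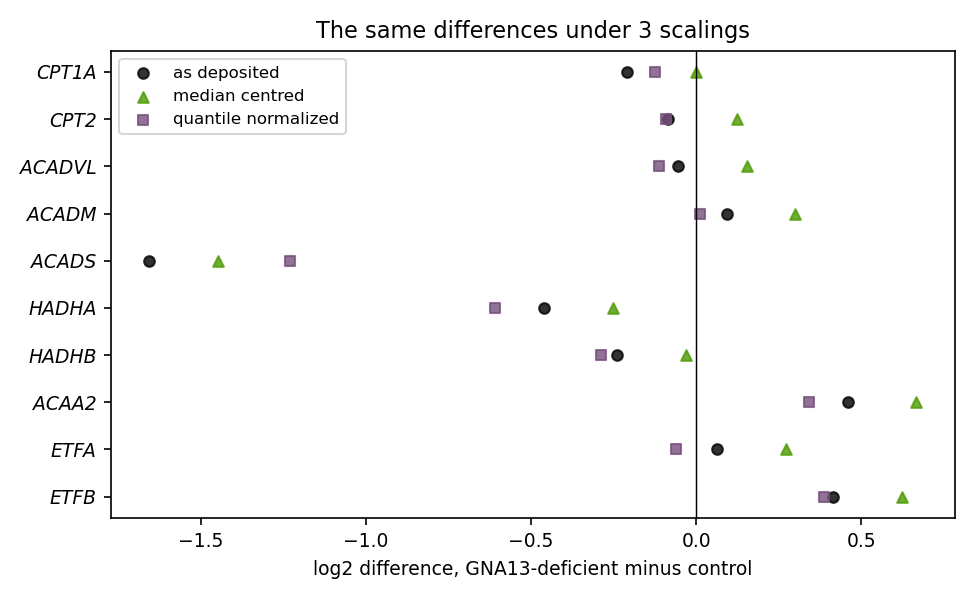
Log2 difference of each enzyme (horizontal axis, libraries labelled GNA13-deficient minus control) for the values as deposited (black circles), with each library centred on its median (green triangles) and after quantile normalization (purple squares). CPT2 and ACADVL cross 0 under centring, at 0.12 and 0.15, and ETFA crosses under quantile normalization, at -0.061.

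Ratios between transcripts of 1 library do not depend on how libraries were scaled to each other by a constant, and they were taken per kilobase of the longest protein-coding transcript in GENCODE. The pairs were chosen after the values were seen and carry no test, since 2 libraries against 2 cannot give an exact permutation p below 0.333. HADH, the matrix dehydrogenase for shorter 3-hydroxyacyl-CoA, stood at a log2 ratio to HADHA of -1.42 and -1.41 under the control label and of -0.33 and -0.09 in those labelled GNA13-deficient, a ratio 2.30-fold higher. ECHS1, the matrix hydratase for shorter enoyl-CoA, stood at -0.04 and -0.04 to HADHA against 0.74 and 0.94. The ratio of the thiolases ACAA2 and HADHB went from 0.04 and 0.13 to 0.78 and 0.79. In each of these 3 pairs the matrix enzyme gained on the subunit of the trifunctional protein. Each sets a gene called higher over a subunit called lower, so the shared direction follows from those calls. The mitochondrial thiolase ACAT1 was not paired and fell by 0.77, further than HADHB at 0.24.

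Within the complexes the shifts were -0.22 and -0.35. The ratio of HADHA to HADHB was 0.90 and 1.03 under the control label and 0.81 and 0.67 under the GNA13-deficient label. The ratio of ETFA to ETFB was 2.55 and 2.48 against 2.18 and 2.15. ACADS moved furthest against its neighbour in chain length, from -4.75 and -4.24 relative to ACADM to -6.40 and -6.09. The ratio of CPT1A to CPT2 was -1.94 and -1.96 against -2.09 and -2.06, a shift of -0.12.

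**Figure D4:**
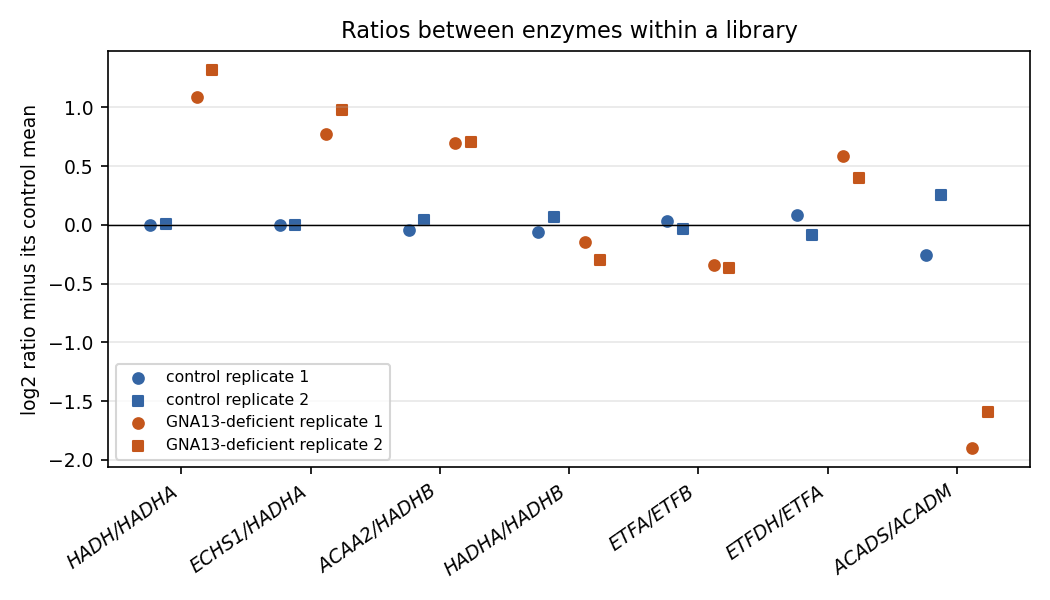
Log2 ratio of transcript pairs within each library, per kilobase and minus the mean of the libraries labelled control (vertical axis), with blue for control, orange for GNA13-deficient, circles for replicate 1 and squares for replicate 2. HADH over HADHA is shifted by 1.20, ACAA2 over HADHB by 0.70 and ACADS over ACADM by -1.75.

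Levels of the 10 enzymes were put in order on the scale of log2 normalized reads per kilobase of the longest protein-coding transcript. In the libraries labelled control the order was HADHA (11.67), ETFA (11.57), ACAA2 (10.79), ACADVL (10.73), HADHB (10.71), ACADM (10.41), ETFB (9.05), CPT2 (9.04), CPT1A (7.09) and ACADS (5.91). ACADVL and HADHB, and likewise ETFB and CPT2, overlapped between their libraries. In the libraries labelled GNA13-deficient, ETFA (11.63) and ACAA2 (11.25) stood above HADHA (11.21), with ACAA2 and HADHA overlapping, and the last 4 places were unchanged. The order depends on the transcript length chosen. With the union of all exons as length, 6 of the 10 kept their place among the libraries labelled control, and HADHA (10.67) stood above ACAA2 (10.50) and ETFA (9.79) in the libraries labelled GNA13-deficient too.

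Of 13 listed genes for other mitochondrial enzymes of the pathway, 12 were tested. Among them 5 were called higher and 1 lower, beside 13.1% and 16.6% of all genes tested. At or above the median level, where all 12 lay, the shares were 21.3% and 17.7%. The median of the list was 0.27. Under median centring 7 were called higher and 1 lower, with a median of 0.48. All 16945 genes tested then had 4311 higher and 1924 lower, with a median of 0.18. HADH had log2 values of 11.23 and 11.32 under the control label and 11.92 and 12.12 under the GNA13-deficient label, and it rose by 0.74 (standard error 0.08, limma adjusted p = 0.00476). ECHS1 rose by 0.42, from 11.94 and 12.02 to 12.32 and 12.48. ACOT9, an acyl-CoA thioesterase, rose by 0.51. ACAT1, the thiolase that splits acetoacetyl-CoA and also serves ketone body and isoleucine breakdown, fell by 0.77 (11.11 and 11.16 against 10.32 and 10.41). ACADL, the long-chain dehydrogenase, was listed at 0 in all 4 libraries. The calls of HADH, ECHS1, ACOT9, ETFDH and ACAT1 held under both scalings. Without a filter on low values those of HADH (limma adjusted p = 0.0655) and ECHS1 (0.114) were lost. Without a mean-variance trend that of ECHS1 (0.0880) was lost.

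Of 13 genes for uptake and activation of fatty acids, 9 were tested. Among them 5 were called higher and none lower, beside 13.1% and 16.6% of all genes tested. For all genes at or above the median level the shares were 21.3% and 17.7%. The median of the list was 0.25. Under median centring 7 were called higher and none lower, with a median of 0.46. All 16945 genes tested then had 4311 higher and 1924 lower, with a median of 0.18. The fatty acid binding proteins FABP5 (12.50 and 12.49 against 12.96 and 13.12) and FABP3 (56 and 50 reads against 86 and 90) rose by 0.55 and 0.80. ACSL3, an acyl-CoA synthetase of the endoplasmic reticulum and lipid droplets, rose by 0.45, and DBI, which binds acyl-CoA, by 0.43. CD36, a fatty acid transporter, had at most 1 read in a library. The calls of FABP5, FABP3, ACSL3 and DBI held under both scalings, and ACSL4, the remaining gene called, was lost with quantile normalization (adjusted p = 0.0827). Without a filter on low values FABP5 (limma adjusted p = 0.0696), DBI (0.0751) and FABP3 (0.105) did not pass. Without a mean-variance trend FABP5 (0.0527) and DBI (0.0681) did not.

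Peroxisomes shorten very-long-chain and branched fatty acids before mitochondria take over. Of 13 such genes 12 were tested, with 3 called higher and 3 lower, beside 13.1% and 16.6% of all genes tested. The median of the list was -0.072 (0.14 under median centring). EHHADH, the bifunctional hydratase and dehydrogenase, had 6 and 9 reads under the control label against 30 and 31 and rose by 2.12 (standard error 0.37). ABCD3, a transporter of fatty acids into peroxisomes, rose by 0.67, while the reductase DECR2 fell by 1.08. The calls of EHHADH, ABCD3 and DECR2 held under both scalings, and that of EHHADH was lost without a filter on low values (limma adjusted p = 0.100).

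Regulators of the pathway, 20 of 23 being tested, had 1 member called higher and 6 lower, beside 13.1% and 16.6% of all genes tested. The median of the list was 0.0080. Under median centring 6 were called higher and 5 lower, with a median of 0.22, and with quantile normalization 2 and 6. All 16945 genes tested had 4311 higher and 1924 lower under median centring, with a median of 0.18, and 2741 and 2547 with quantile normalization. PPARD, a nuclear receptor that activates fatty acid oxidation genes, had log2 values of 9.06 and 8.92 under the control label and 8.003 and 7.85 under the GNA13-deficient label, a fall by 1.06 (standard error 0.11, limma adjusted p = 0.00376). RXRA, the dimer partner of these receptors, had 33 and 30 reads against 6 and 6 and fell by 2.32. PPARA had 9.24 and 9.26 against 8.997 and 8.68, a difference of -0.41 that did not pass (adjusted p = 0.0686) but did with the filter at the median level (0.0159) and with voom on recovered reads (0.0370), and PPARGC1A, the coactivator, had 2 reads in 1 library and 0 in the others. MLYCD, which degrades the CPT1 inhibitor malonyl-CoA, fell by 1.30, from 228 and 277 reads to 95 and 100. ACACA and ACACB, which make malonyl-CoA, had differences of 0.28 and 0.63 that did not pass as deposited (adjusted p = 0.0839 and 0.0650) and did pass under median centring. ACACA also passed with the filter at the median level (adjusted p = 0.0214), and ACACB with quantile normalization (0.0129), voom (0.0344), a robust prior (0.0412) and a pseudocount of 1 (0.0479). NRF1, the regulator called higher, had 9.58 and 9.56 against 9.86 and 9.89 and rose by 0.31 (limma adjusted p = 0.0225). ESRRA had 10.78 and 10.77 against 10.43 and 10.505 and fell by 0.31 (limma adjusted p = 0.0178). LPIN1 fell by 0.63 (limma adjusted p = 0.00295). The calls of NRF1 and LPIN1 held under both scalings, and that of ESRRA was lost under median centring (adjusted p = 0.297). The calls of PPARD, RXRA and MLYCD held under both scalings, and that of RXRA was lost without a filter on low values (limma adjusted p = 0.0661).

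Over all 7 of these lists, 16 of 72 tested genes were called higher and 16 lower. Under median centring the counts were 29 and 13, beside 4311 and 1924 of all 16945 genes tested. As deposited 44.4% of the 72 were called in either direction, beside 29.7% of all genes tested and 39.0% of those at or above the median level. No list was tested as a set. Of 82 listed genes, 7 were at 0 in all 4 libraries.

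**Figure D5:**
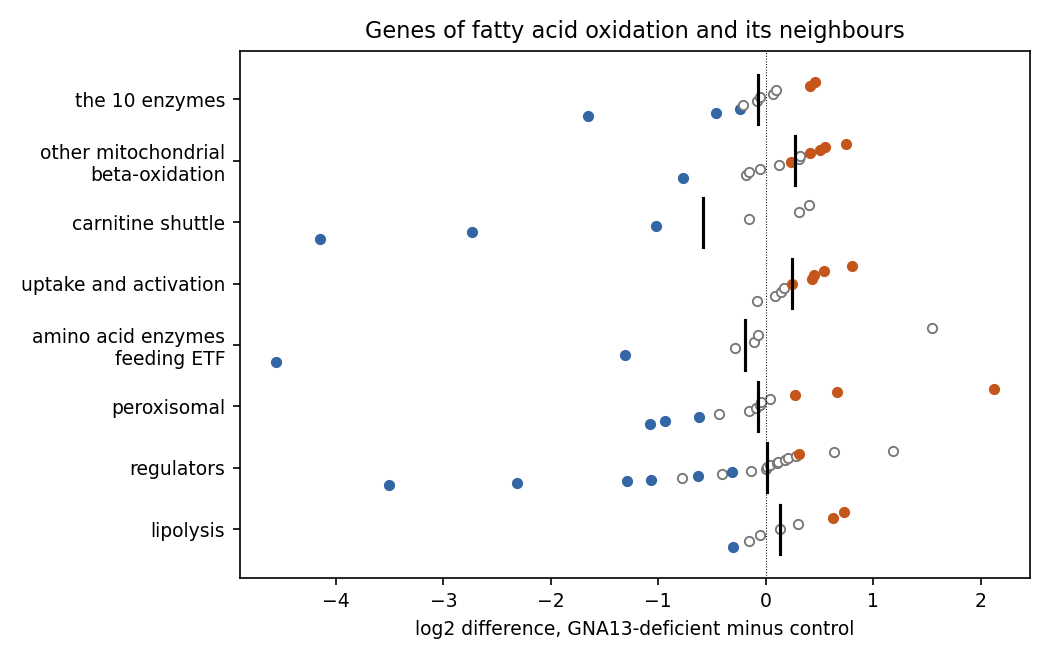
Log2 difference (horizontal axis, libraries labelled GNA13-deficient minus control) of every tested gene in each list; filled points passed an adjusted p of 0.05 (orange higher, blue lower), open points did not, and the black bar is the list's median. The medians lie between -0.58 for the carnitine shuttle and 0.27 for other mitochondrial enzymes, and single genes reach -4.56 and 2.12.

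Upstream sequence was compared over the 250 bases before each RefSeq start, with 12 windows for the 10 genes among 35116 windows of that length, searched on both strands. The GC box GGGCGG was found upstream of 8 of the 10 genes, all but CPT1A and ACAA2, and in 42.6% of all windows. A gene counts with a match in any of its windows, so its count and the share per window are unlike measures. The GC box of HADHA is also counted for HADHB. The CCAAT box was found upstream of ETFA and ETFB (32.0% of all windows) and the NRF1 element, GCGC followed by any base and TGCGC, upstream of ETFB (5.07%). No window of the 10 genes held the E-box CACGTG (6.34%), the FOXO element GTAAACA (2.98%), the ERR element TCAAGGTCA (0.319%) or the PPAR element, an AGGTCA repeat with 1 base between the repeats (0.0171%). The ERR and PPAR elements were found in only 112 and 6 of all 35116 windows. Their absence from 12 windows therefore shows nothing about these genes. Inexact matches and sequence outside the 250 bases were not searched. Of the 5 genes called, ACAA2 was the one without a match to any of these.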

How the data were processed

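Reads of the 4 libraries were aligned by the authors to hg19 with STAR, normalized and log2-transformed; HTSeq is also named in the submitters' processing notes, and the annotation and the method of normalization are not given in the sources used here. No further scaling was applied to the deposited log2 values, and the deposited total of mapped reads per library served for depth only. On the linear scale all values of up to 400 reads were whole multiples of a constant per library (within 0.02 reads or the rounding of the values), which gave the reads per gene. Intervals on reads cover counting error only.

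Genes with a value over 0, the lowest listed, in 2 or more libraries (16945 of 25066) were fitted with limma 3.58.1 in R 4.3.3 (mean-variance trend, genotype as the only term), with Benjamini-Hochberg adjustment over all genes tested. The script was tested on simulated data. Positions and lengths are from GENCODE v44lift37 on GRCh37, the same assembly as hg19, and upstream sequences from RefSeq on GRCh38.p14.

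Named genes were the 10 members, GNA13, 9 further listed genes, and in each of 7 lists up to 4 genes with the largest absolute difference among those called, of which 1 is not reported here. CD36, ACADL, the single myeloid markers and the overlapping genes and pseudogenes were named after their values or positions were seen. Members and lists were chosen with earlier results of these data known, and list genes were matched by Entrez identifier. The alternatives tried were a filter at the median level, no filter, pseudocounts of 1 and 10, median centring, quantile normalization, the replicate block, no variance trend, a robust prior, voom on recovered reads, and each library left out.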

Additional observations from a re-analysis of the deposited data

How the results depend on the processing

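For the 10 enzymes, 2 higher and 3 lower calls were also counted with pseudocounts of 1 and 10, quantile normalization, a robust variance prior and voom on recovered reads, and 2 and 2 with the filter at the median level, which leaves ACADS out. Without a filter 0 were called higher and 1 lower (HADHA; 2 and 5 at an unadjusted p under 0.05 in limma), 1999 of all genes were called, and 6 and 8 genes of the other lists. Without a variance trend these were 0 and 1 (ACADS; 2 and 2 unadjusted), 2718 and, for the higher genes of the other lists, 8. The filter at the median level left 9 lower genes of the other lists, from fewer genes tested. Median centring gave 29 higher genes of the other lists and moved the median over the 10 enzymes to 0.14, with ACADM gained and HADHB lost. Over all genes tested it gave 4311 higher in place of 2218 and moved the median to 0.18. Causes were not tested. With each library left out in turn, all counts of calls were 0 in limma (5257 to 5600 genes at an unadjusted p under 0.05, and 1 to 2 higher and 2 to 4 lower among the 10 enzymes), since 1 residual degree of freedom remains and the lone library is assumed to vary like the other genotype. The median over the 10 enzymes then ranged from -0.099 to -0.040.

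Values that reversed were CPT2 (0.12), ACADVL (0.15) and SLC25A20 (0.056) under median centring, and ETFA with quantile normalization (-0.061) and without GNA13-deficient replicate 2 (range over the libraries left out -0.026 to 0.15). With the union of exons as length, 6 of the 10 enzymes kept their place in the order of levels. Over all alternatives a call was lost in 29 cases and gained in 1 for the 10 enzymes, and in 123 and 11 for the other named genes.

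No source pairs the libraries by replicate number. The correlation of the deviations of same-numbered libraries was 0.453 over 8473 genes, which are no independent replicates. A replicate block raised the number of genes called to 6616 and left the 10 enzymes at 2 higher and 3 lower, while PPARA (adjusted p = 0.0353) and ACACA (0.0370) passed. At 30 to 38 reads in the libraries labelled GNA13-deficient, ACADS is the member whose level is limited most by depth.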

Other observations

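Lipid droplets hold the store from which fatty acids for oxidation are released. PLIN2, a coat protein of these droplets, had 300 and 354 reads under the control label and 24 and 31 under the GNA13-deficient label, and it fell by 3.51 on the log2 scale (standard error 0.23, limma adjusted p = 0.00158), a fall that held under both scalings at -3.30 and -3.18. It is a target of PPAR receptors and was counted with the regulators. Of 8 genes of lipolysis and droplets 7 were tested, with 2 called higher and 1 lower, beside 13.1% and 16.6% of all genes tested. Under median centring the counts of this list were 4 and 0, beside 4311 and 1924 of all 16945 genes tested. ABHD5, the coactivator of the triglyceride lipase, rose by 0.73 (8.46 and 8.46 against 9.18 and 9.195), and MGLL, which cleaves monoacylglycerol, rose by 0.62. PNPLA2, the triglyceride lipase itself, fell by 0.30 (11.01 and 10.96 against 10.59 and 10.78), which was lost under median centring (-0.095, adjusted p = 0.486).

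Dehydrogenases of amino acid breakdown also pass electrons to the electron transfer flavoprotein. All 6 were tested, with none called higher and 2 called lower, beside 13.1% and 16.6% of all genes tested. The median of the list was -0.20 (0.013 under median centring). ACAD8, the isobutyryl-CoA dehydrogenase of valine breakdown, had log2 values of 9.62 and 9.57 under the control label and 8.23 and 8.34 under the GNA13-deficient label. It fell by 1.31 (standard error 0.08, limma adjusted p = 0.00157). SARDH, the sarcosine dehydrogenase, had 30 and 41 reads against 1 and 2, with summed reads 22.5 times lower (95% counting interval 7.41 to 112). Both falls held under median centring and quantile normalization, and the call of SARDH was lost without a filter on low values (limma adjusted p = 0.0586).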
